A study of Mus musculus with 26 samples.

Results

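The genes described here are 7 mouse genes for proteins with an HMG box: Lef1, Sox4, Sox5, Sox6, Sox13, Tox and Tox2. They were chosen by name, and every probe set annotated to exactly 1 of these symbols was taken, which gave 27 probe sets of the 45101 on the array and 7 of the 18193 genes tested. Lef1 had 2 probe sets, Sox4 had 8, Sox5 had 7, Sox6 had 4, Sox13 had 1, Tox had 3 and Tox2 had 2. Of the 27, 21 rose more than 1 log2 unit above the lowest value of the table on at least 1 array, and 6, of Sox4, Sox5 and Tox2, never did.

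The HMG box is a DNA-binding fold that enters the minor groove and bends the helix. Lef1 belongs to the TCF/LEF family, whose members bind CTTTG-type motifs and turn on target genes together with beta-catenin in the Wnt pathway, and it is known for its part in early T cell and B cell development. Sox proteins bind ATTGT-type motifs. Sox4, of the SoxC group, is needed for B lymphopoiesis and is widely expressed in progenitors, while Sox5, Sox6 and Sox13 form the SoxD group, whose members lack a known transactivation domain; Sox6 acts in red cell maturation and Sox13 in gamma-delta T cells. Tox and Tox2 belong to a separate family of HMG-box proteins, of which Tox is required for CD4 T cell, NK cell and innate lymphoid development.

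The study compared mRNA of 8 progenitor populations of C57/Bl6 mice on Affymetrix arrays, 26 in all. From bone marrow came 5 arrays of MPPFL- and 3 each of MPPFL+, CMP, GMP and CLP, and from thymus came 3 arrays each of DN1, DN2 and DN3. All mice were labelled as males of 2 months, and no genetic change or treatment is given for any population. A further label spells the first populations MMPFL- and MMPFL+ and calls the CLP arrays ALP; in the field's usual terms MPP are multipotent progenitors split by FL (Flt3), CMP and GMP are myeloid progenitors, CLP are common lymphoid progenitors, and DN1 to DN3 are successive CD4- CD8- thymocyte stages. Whether the replicates are separate animals or separate sorts is not stated, so p-values here measure the spread between these samples, which may be technical.

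Values are log2 expression as deposited. They ran from a common lowest value of 2.17, called the floor below, to 17.1, and 30.2 to 37.1% of the probe sets of an array lay at its lowest value. Each of the 26 arrays was most like another array of its own population. Flt3 was higher in MPPFL+ than in MPPFL-, all 4 lymphoid progenitor markers were higher in CLP than in MPPFL+, and 5 of 6 early thymocyte markers were higher in DN2 than in DN1, which follows the labels. On 4 thymic arrays the label of sex did not match: Xist, which is expressed from the inactive X chromosome of females, read 12.21 and 13.59 on DN1 replicates 1 and 3, and 12.99 and 6.30 on DN2 replicates 2 and 3. The Y-linked gene Eif2s3y read 2.62 on DN1 replicate 3 and 2.17 on DN2 replicate 2, but 12.76 on DN1 replicate 1 and 13.34 on DN2 replicate 3, so signal of both genes was present on the latter 2 arrays. Calls of the 7 genes that rest on DN1 or DN2 are therefore also given without these 4 arrays. That leaves 1 array each in DN1 and DN2, assumed to vary like the other populations. The spike-in controls also differed between populations, with a mean of 9.87 to 11.7 in DN3 against 2.46 to 2.54 in DN2 and 2.49 to 2.56 in DN1, 7.22 to 9.34 over CMP and GMP, and 3.63 to 5.09 over MPPFL-, MPPFL+ and CLP. In sorted bulk samples such as these, fewer cells that express a gene and less RNA per cell cannot be told apart.

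Promoters are shown for the 3 members with the largest changes below that have an entry, because the study as a whole concerned methylation of DNA and these are the stretches just before the start sites of the genes described. RefSeq start sites on build GRCm38.p6 were matched for 6 of the 7 members, all but Tox, and each window covers the 250 bases before the start. Where a gene had several starts the most upstream was taken, which may not be the start used in these cells. Capitals mark every CTTTG or CAAAG and every ATTGT or ACAAT, which are the TCF/LEF and Sox core motifs read on both strands. The Lef1 window lies at chr3:131110047-131110296 on the plus strand, the Sox4 window at chr13:28953700-28953949 on the minus strand and the Sox6 window at chr7:116038745-116038994 on the minus strand.
Lef1: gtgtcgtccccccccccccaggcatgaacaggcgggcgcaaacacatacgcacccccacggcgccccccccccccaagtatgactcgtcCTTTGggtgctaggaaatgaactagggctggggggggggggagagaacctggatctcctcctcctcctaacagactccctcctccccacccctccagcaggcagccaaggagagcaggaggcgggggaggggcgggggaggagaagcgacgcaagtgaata
Sox4: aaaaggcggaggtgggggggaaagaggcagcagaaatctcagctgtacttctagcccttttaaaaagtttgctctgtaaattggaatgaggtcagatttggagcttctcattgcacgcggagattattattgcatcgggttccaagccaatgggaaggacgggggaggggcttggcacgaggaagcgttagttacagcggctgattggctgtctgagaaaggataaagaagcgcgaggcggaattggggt
Sox6: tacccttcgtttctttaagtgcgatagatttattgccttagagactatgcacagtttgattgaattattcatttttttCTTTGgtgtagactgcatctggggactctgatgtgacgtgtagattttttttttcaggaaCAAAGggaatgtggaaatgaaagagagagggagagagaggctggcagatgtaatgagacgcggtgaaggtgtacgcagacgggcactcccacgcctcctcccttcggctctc
The Lef1 window held 1 CTTTG-type match, the Sox6 window held 2 and the Sox4 window held none, where 48.8% of 27019 such windows held at least 1. None of the 3 held an ATTGT-type match, which 28.2% of all windows held. The CpG count was 11 for Lef1, 11 for Sox4 and 9 for Sox6 against a median of 6, and 36.0% of windows had at least 11. Among the others, the Sox13 window had 31 CpGs, the Tox2 window had 27 and the Sox5 window had 3, counts reached by 4.93%, 8.18% and 70.4% of windows. A match is a match of letters in this window and was not tested as a binding site, and methylation of these stretches was not analysed here.

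Lef1 was seen in DN3 and nowhere else beyond 1 log2 unit above the floor. Its brighter probe set, 1454734_at, read 11.48, 11.51 and 10.85 in DN3, whereas DN1 read 2.89, 2.17 and 2.17 and all arrays of the other 6 populations read 2.17. The 3 DN3 arrays stood apart from all 23 others with no overlap. The second probe set, 1421299_a_at, read 8.68, 8.54 and 8.30 in DN3 and 2.17 in every other population. DN3 exceeded DN2 by 9.11 log2 units (SE 0.15, n = 3 each, adjusted p = 2.06e-19 by limma with Benjamini-Hochberg adjustment), a ratio of at least 553-fold since DN2 lay at the floor. The second probe set rose by at least 80.6-fold (adjusted p = 2.54e-24 over all probe sets), so 2 of 2 passed where 23.9% of all probe sets did. The call held under every alternative run, including the fit without the 4 arrays with Xist signal.

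**Figure D1:**
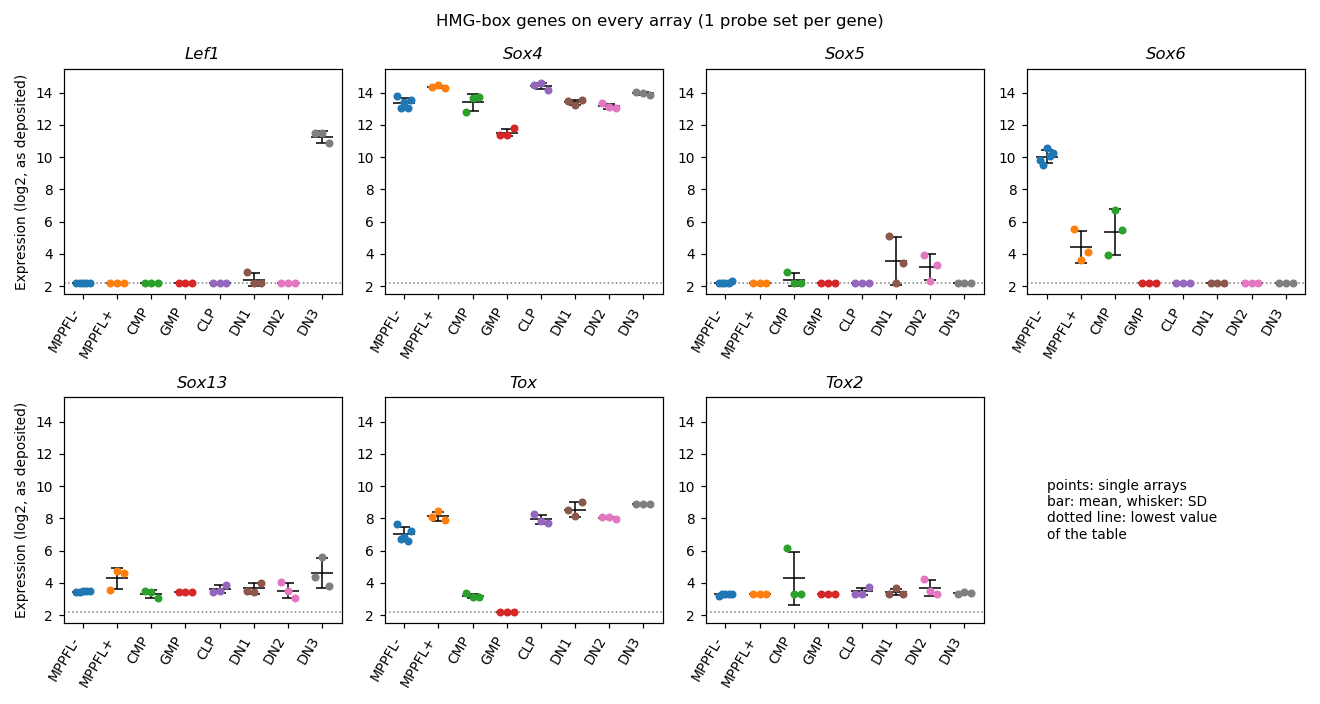
Log2 expression as deposited (vertical axes) of the 7 HMG-box genes in 8 populations, 1 probe set per gene; points are single arrays, bars are means, whiskers are SD and the dotted line is the floor of 2.17. Lef1 leaves the floor in DN3, Sox6 is at 10.04 in MPPFL- and at the floor from GMP onward, and Tox is at the floor in GMP.

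Sox4 was present in all 8 populations and lowest in GMP. On its brightest probe set, 1433575_at, CLP read 14.49, 14.59 and 14.20, MPPFL+ read 14.35, 14.45 and 14.28, and DN3 read 14.03, 14.01 and 13.86. MPPFL- read 13.77, 13.04, 13.43, 13.06 and 13.57, CMP read 12.81, 13.69 and 13.75, and GMP read 11.39, 11.41 and 11.78. DN1 read 13.5, 13.24 and 13.52, and DN2 read 13.34, 13.10 and 13.07. In order of the means, CLP (14.43 ± 0.20, SD, n = 3) and MPPFL+ (14.36 ± 0.09) overlapped, MPPFL+ lay wholly above DN3 (13.97 ± 0.09), and DN3 wholly above DN1. From DN1 through CMP and MPPFL- to DN2 (13.17 ± 0.15), neighbours overlapped, and all 4 lay above GMP (11.53 ± 0.22).

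Sox4 fell by 1.89 log2 units from CMP to GMP (limma adjusted p = 1.97e-06) and was 2.90 units higher in CLP than in GMP (adjusted p = 2.31e-09). Other Sox4 probe sets gave the same direction: 5 of 8 fell in GMP, where 16.2% of all probe sets passed in either direction, and 4 of 8 were higher in CLP, where 20.8% passed. The next brightest, 1419156_at, read 11.86, 10.49 and 11.22 in CMP, 7.11, 6.94 and 6.93 in GMP, and 11.30, 11.54 and 10.87 in CLP. The difference was -4.20 for GMP against CMP and 4.24 for CLP against GMP on that probe set, larger than on the brightest one. Both calls held in all 14 alternatives run for each.

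The remaining Sox4 calls rested on 1433575_at alone. It was 0.99 units higher in MPPFL+ than in MPPFL- (adjusted p = 0.00111), changed by -0.94 from MPPFL+ to CMP (adjusted p = 0.00269), changed by -1.0 from CLP to DN1 (adjusted p = 0.00126) and was 0.80 higher in DN3 than in DN2 (adjusted p = 0.00655). None of the other 7 Sox4 probe sets passed in either direction in these 4 comparisons, where 15%, 16%, 23.1% and 23.9% of all probe sets passed. On 1419156_at the change for MPPFL+ against MPPFL- was -0.48 (adjusted p = 0.413), and for DN1 against CLP it was 0.53 (adjusted p = 0.341). With the mean of all 8 probe sets, the same changes were 0.07, 0.24, -0.09 and 0.18 with adjusted p-values of 1, 0.456, 1 and 0.646. With clusters of the spike-in controls as a random block, the CMP against MPPFL+ and DN1 against CLP calls were lost (adjusted p = 0.0636 and 0.0772), and the former was lost with only these populations fitted (adjusted p = 0.169). Without the 4 arrays with Xist signal, the DN1 against CLP change was -1.18 (adjusted p = 0.0141) and the DN3 against DN2 change was 0.62 (adjusted p = 0.23).

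**Figure D2:**
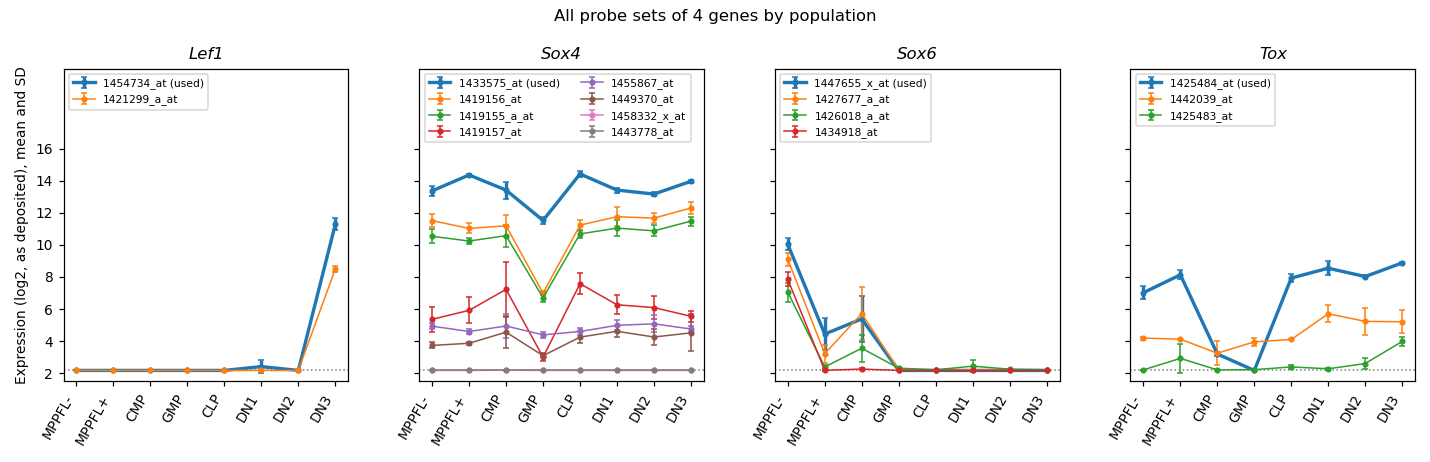
Mean log2 expression with SD (vertical axis) of every probe set of Lef1, Sox4, Sox6 and Tox by population; the thicker line is the probe set used for the gene. For Sox4 the 2 brightest lines both dip in GMP, and for Sox6 all 4 lines are highest in MPPFL-.

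Of the SoxD genes, Sox6 had the widest range and was highest in MPPFL-. Its probe set 1447655_x_at read 9.84, 9.54, 10.55, 10.05 and 10.23 in MPPFL-, 5.56, 3.65 and 4.11 in MPPFL+ and 3.92, 6.74 and 5.48 in CMP. It read 2.17 on every array of GMP, CLP, DN1, DN2 and DN3. All 5 MPPFL- arrays lay above every other array, whereas MPPFL+ and CMP overlapped. Sox6 fell by 5.60 log2 units from MPPFL- to MPPFL+ (SE 0.43, limma adjusted p = 4.91e-08), a ratio of 48.6-fold, and all 4 probe sets fell, where 15% of all probe sets passed. This call held in all 16 alternatives run.

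Between MPPFL+ and CMP, Sox6 differed by 0.94 (adjusted p = 0.175), and it did not pass. Another of its probe sets, 1427677_a_at, read 3.63, 3.42 and 2.59 in MPPFL+ and 3.84, 6.93 and 6.37 in CMP, 2.50 units higher (adjusted p = 0.0013 over all probe sets), and 1426018_a_at was 1.17 higher (adjusted p = 0.0214). On the probe set used, leaving out 1 array at a time moved the change between 0.26 (adjusted p = 0.88, without CMP replicate 2) and 1.67 (adjusted p = 0.00482, without CMP replicate 1). It was 0.55 (adjusted p = 0.58) without MPPFL+ replicate 2 and 1.5 (adjusted p = 0.0315) without MPPFL+ replicate 1, and 2 of the 6 such fits passed. From CMP to GMP, Sox6 changed by -3.21 (adjusted p = 6.92e-05), at least 9.26-fold, and 3 of 4 probe sets passed as lower. CLP against MPPFL+ changed by -2.27 (adjusted p = 0.00483), at least 4.82-fold, on 1 of 4 probe sets, where 4.11% of all probe sets passed. In fits of the populations compared alone, neither of these 2 calls passed (adjusted p = 0.0896 and 0.163).

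Markers of red cells and megakaryocytes moved with Sox6 in part. The summed level of the 6 measured markers, as a log2 value, was 11.32 to 12.42 in MPPFL-, 8.72 to 8.99 in MPPFL+, 13.87 to 14.35 in CMP and 9.58 to 9.82 in GMP. Of the 6, Gata1, Klf1, Itga2b and Pf4 were lower in MPPFL+ than in MPPFL-, and all 6 were higher in CMP than in MPPFL+. So the markers were highest in CMP, where Sox6 was well below its MPPFL- level. Their part in the Sox6 result was not tested.

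Sox5 rose slightly above the floor in the earliest thymic stages. Its probe set 1423500_a_at read 5.12, 2.17 and 3.44 in DN1 and 3.91, 2.35 and 3.33 in DN2, and 2.17, 2.17 and 2.19 in DN3. The arrays within DN1 spread over nearly 3 units, and its lowest was at the floor, so DN1 overlapped all other populations. DN1 exceeded CLP by 1.39 (SE 0.46, adjusted p = 0.0301), and this call did not hold without DN1 replicate 1 (0.62, adjusted p = 0.218) nor without any 1 of the CLP replicates (adjusted p = 0.0658 to 0.0715). Without DN1 replicate 2 the change was 2.10. The call was also lost with the spike-in block (adjusted p = 0.41) and with only DN1 and CLP fitted (0.389). The 2 DN1 arrays above the floor were those with Xist signal, and without the 4 such arrays the change was -0.01 (adjusted p = 1). In the same fit, DN2 replicate 1 exceeded DN1 replicate 2 by 1.73 (adjusted p = 3.18e-05), and DN3 lay below it by a change of -1.73 (adjusted p = 3e-06), each resting on a lone array. Of the other 6 Sox5 probe sets, 1432190_at read 3.87 on DN1 replicate 2, which has no Xist signal, and 2.17 on DN1 replicates 1 and 3. Another, 1455535_at, was 0.67 higher in DN2 than in DN1 (adjusted p = 0.025 over all probe sets) and 1440827_x_at read 2.92, 4.10 and 2.17 in DN2 and 2.17 on the DN3 arrays, so the probe sets differed in which thymic stage was highest.

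Sox13, measured by 1 probe set, lay near a recurring low value of 3.46 on 16 of 26 arrays. It read 4.39, 5.63 and 3.83 in DN3 and 4.04, 3.47 and 3.07 in DN2, which overlap. MPPFL+ read 3.54, 4.74 and 4.60 against 3.43 to 3.50 in MPPFL-. DN3 exceeded DN2 by 1.09 (SE 0.35, adjusted p = 0.0233), a call lost without DN2 replicate 2 (adjusted p = 0.0585), without DN2 replicate 3 (0.118) and without DN3 replicate 2 (a change of 0.58, adjusted p = 0.196). It was also lost without the 4 arrays with Xist signal (0.57, adjusted p = 0.613) and with only DN2 and DN3 fitted (adjusted p = 0.311). The MPPFL+ against MPPFL- change of 0.83 did not pass (adjusted p = 0.0892), though all 3 MPPFL+ arrays lay above all 5 of MPPFL-; without 1 array at a time it ran from 0.61 (adjusted p = 0.411, without MPPFL+ replicate 2) to 1.21 (adjusted p = 0.0196, without MPPFL+ replicate 1), and 1 of 8 such fits passed. The change of -0.97 for CMP against MPPFL+ likewise did not pass (adjusted p = 0.0524). Of the gamma-delta T cell markers measured, Il17a lay within 1 unit of the floor. The summed level of the 4 was 8.44 to 9.25 in DN3 and 7.58 to 8.80 in DN2. It was highest in DN1, at 10.53 to 11.46, where Sox13 read 3.48, 3.46 and 4.02. The part of these markers in the Sox13 values was not tested.

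Tox was high in MPP, CLP and all thymic stages and low in the myeloid progenitors. Its probe set 1425484_at read 7.65, 6.73, 6.86, 6.63 and 7.24 in MPPFL-, 8.08, 8.45 and 7.88 in MPPFL+ and 8.24, 7.83 and 7.73 in CLP. CMP read 3.36, 3.10 and 3.13, and all 3 GMP arrays read 2.17. The thymic values were 8.52, 8.12 and 9.0 in DN1, 8.08, 8.07 and 7.93 in DN2, and 8.91, 8.86 and 8.87 in DN3. In order of the means, DN3 (8.88 ± 0.03), DN1 (8.55 ± 0.44), MPPFL+ (8.14 ± 0.29), DN2 (8.03 ± 0.08) and CLP (7.94 ± 0.27) overlapped from neighbour to neighbour. CLP lay wholly above MPPFL- (7.02 ± 0.42), MPPFL- above CMP (3.20 ± 0.14) and CMP above GMP.

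Tox was 1.12 units higher in MPPFL+ than in MPPFL- (SE 0.21, limma adjusted p = 0.000741) and changed by -4.94 from MPPFL+ to CMP (adjusted p = 1.26e-11), a ratio of 30.7-fold. CLP exceeded GMP by 5.76 (adjusted p = 2.27e-13), at least 54.3-fold. These 3 calls held under every alternative run, with smaller changes of 0.59, -2.18 and 2.03 for the mean of the 3 probe sets, of which the other 2 are dimmer. They rest on 1425484_at, since neither of the other 2 probe sets passed in these comparisons; 1442039_at changed by -0.07 for MPPFL+ against MPPFL- and by 0.15 for CLP against GMP. The step from CMP to GMP, -1.02 (adjusted p = 0.00284), lay between values near the floor and was lost with the mean of the 3 probe sets (-0.10, adjusted p = 0.939) and with spike-in clusters as a random block (adjusted p = 0.0993). NK and innate lymphoid markers Ncr1, Tbx21, Il2rb and Prf1 lay within 1 unit of the floor in all 8 populations. The summed level of the 8 measured markers was highest in GMP, at 13.47 to 13.52, against 10.42 to 13.05 elsewhere. The markers did not move as a set: from CMP to GMP only Nkg7 passed as higher, and Klrd1 passed as lower. Between GMP and CLP, Klrd1 was higher in CLP, and Zbtb16 and Nkg7 were lower. Their part in the Tox values was not tested.

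Between marrow CLP and thymic DN1, Tox was 0.61 higher in DN1 on this probe set (adjusted p = 0.0561), which did not pass and was 0.19 (adjusted p = 0.984) without the 4 arrays with Xist signal, while its dimmer probe set 1442039_at read 5.98, 5.11 and 6.03 in DN1 against 4.10 on each CLP array, 1.60 higher (adjusted p = 0.00468 over all probe sets). From DN2 to DN3, 1442039_at did not rise, with means of 5.23 and 5.21 (a change of -0.02). The other dimmer Tox probe set, 1425483_at, rose from 2.67, 2.23 and 2.91 to 3.65, 4.12 and 4.17 (1.38, adjusted p = 0.000882). On the probe set used for Tox, DN3 exceeded DN2 by 0.85 (adjusted p = 0.00681) with no overlap. Without the 4 arrays with Xist signal the DN3 change was 0.80 (adjusted p = 0.0848). Tox2 stayed near a recurring value of 3.34 on 19 of 26 arrays. CMP read 6.17, 3.34 and 3.34 and DN2 read 4.26, 3.47 and 3.34, so each rise lay on 1 array. Tox2 passed in none of the 8 comparisons, and its CMP against MPPFL+ change of 0.94 had an adjusted p of 0.156.

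Set beside the whole table, the 7 genes passed as follows. Between MPPFL- and MPPFL+, Sox4 and Tox rose and Sox6 fell, 3 of 7, where 15.9% of all genes passed, 10.6% as higher and 5.25% as lower. From MPPFL+ to CMP, Sox4 and Tox fell, 2 of 7 against 24.1% (5.39% higher, 18.7% lower). From CMP to GMP, Sox4, Sox6 and Tox fell, 3 of 7 against 21.4% (13.8% higher, 7.63% lower). From MPPFL+ to CLP, Sox6 alone fell, 1 of 7 against 6.54% (2.53% higher, 4.01% lower).

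Between GMP and CLP, Sox4 and Tox were higher in CLP, 2 of 7 against 28.3% of all genes (16.7% higher, 11.6% lower). From CLP to DN1, Sox5 rose and Sox4 fell, 2 of 7 against 26.9% (8.03% higher, 18.8% lower). From DN1 to DN2 none of the 7 passed by limma, against 8.11% of all genes (3.99% higher, 4.12% lower) and 5.48% of probe sets, and 1 of 7, Tox, had an unadjusted p under 0.05. From DN2 to DN3, Lef1, Sox4, Sox13 and Tox rose and none fell, 4 of 7, where 31.1% of all genes passed, 16.7% as higher and 14.4% as lower. The members' median change was 0.80 for DN3 against DN2, -0.95 for GMP against CMP and between -0.24 and 0.15 in the other 6 comparisons, and the median over all genes was 0 in each. With 7 genes these shares are coarse, and comparisons that name the same population share its arrays. The members were also chosen with earlier results of these data known, so the shares only describe these 7 genes.

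The rise in DN3 coincided with other measured differences between the DN3 and DN2 arrays. The spike-in mean was 9.87 to 11.7 in DN3 and 2.46 to 2.54 in DN2, and with spike-in clusters as a random block Lef1 alone of the 7 passed (Sox4, Sox13 and Tox had adjusted p-values of 0.173, 0.277 and 0.128). The summed level of 6 late thymocyte markers was 11.72 to 12.40 in DN3 and 9.04 to 9.38 in DN2, where Themis passed as higher, Cd5 as lower, and Cd4 and Cd8b1 lay within 1 unit of the floor in both populations and Ccr7 in DN3. The summed level of 6 stromal markers was 10.62 to 10.76 in DN3 and 6.30 to 6.67 in DN2, where Epcam rose and Krt8, Col1a1 and Cdh5 lay within 1 unit of the floor. The part of these in the Lef1, Sox4, Sox13 and Tox changes was not tested.

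**Figure D3:**
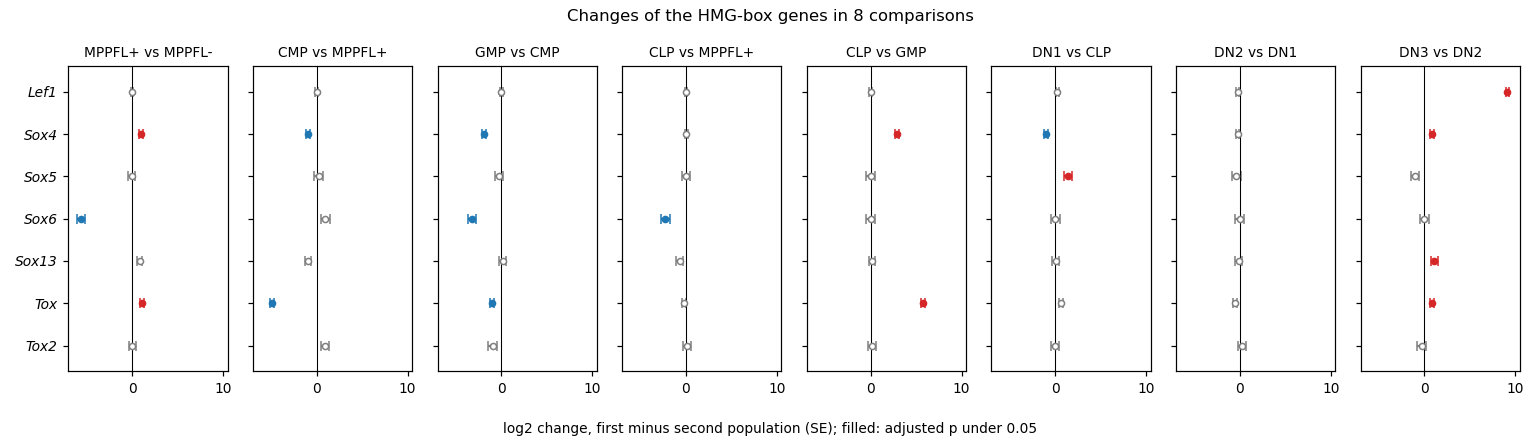
Log2 change (horizontal axes, first minus second population, with SE) of the 7 HMG-box genes in 8 comparisons; filled points passed at an adjusted p under 0.05, red for higher and blue for lower. Lef1 moves in DN3 against DN2 (9.11), Sox6 in MPPFL+ against MPPFL- (-5.60) and Tox in CMP against MPPFL+ (-4.94) and CLP against GMP (5.76).

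For each member, the genes with the most similar pattern over the 8 population means were taken from 10082 genes. For Lef1 they were Scel, Sit1 and Padi3 (Pearson r = 0.9998, 0.9997 and 0.9997), all highest in DN3, with Padi3 at 5.49 there. Lef1 left the floor by more than 1 unit in DN3 alone, so these r values rest on that population. For Sox6 they were Ghr, Myo1d and Rab40b (0.9937, 0.9893 and 0.9892), and for Tox they were Bend5, Rbbp6 and Tert (0.9848, 0.9840 and 0.9833). For Sox4 they were Cbx2, Rxrb and Golm2 (0.9844, 0.9760 and 0.9612). For Sox5, Sox13 and Tox2, which barely left their low values, they were Fasl, Zfp622 and Atf3, then Polr3d, Kcnh2 and Bicdl1, then Atp1b2, Kcnj5 and Ermap, with r from 0.9125 to 0.9876. Sox4 and Tox had r = 0.73 with each other over the 8 means. These values describe 8 points that share arrays and processing, and no test applies to them.

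Of 38 other HMG-box genes listed as relatives, 34 were measured and 18 passed in at least 1 comparison. From DN2 to DN3, 5 of 34 rose and 3 fell, where 16.7% of all genes passed as higher and 14.4% as lower. Tox3, of the same family as Tox, rose from 5.92 ± 0.73 to 10.32 ± 0.42 (4.40, SE 0.33, limma adjusted p = 3.16e-09), Ubtf, a factor of ribosomal RNA transcription, rose by 2.30, and Cic, a transcriptional repressor, rose by 1.74. Hmgb3, a chromatin protein, changed by -1.93 and Wdhd1, a replication factor, by -1.77. From MPPFL- to MPPFL+, 6 rose and 2 fell (10.6% and 5.25% of all genes), led by the TCF/LEF relative Tcf7l1 (2.01) and Tox3 (1.91), with Bbx at -1.40.

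From MPPFL+ to CMP, 1 relative rose (Hmgb3, 1.40) and 6 fell, against 5.39% and 18.7% of all genes, with Tox3 at -2.97, at least 7.81-fold, Tcf7l1 at -2.61 and Tcf7l2 at -2.22. Tcf7l2, also of the TCF/LEF family, changed by a further -2.05 from CMP to GMP, where 3 relatives rose and 4 fell, against 13.8% and 7.63%. Between GMP and CLP, 9 were higher in CLP and 2 lower, against 16.7% and 11.6%, with Tcf7l2 higher by 4.54 (adjusted p = 7.26e-09). From MPPFL+ to CLP only Tcf7l1 passed, at -2.25, where 6.54% of all genes passed. From CLP to DN1, 2 rose and 5 fell, against 8.03% and 18.8% of all genes, with Bbx at 2.08 and Ubtf at -2.06, and from DN1 to DN2 Hbp1 alone passed (-0.95, adjusted p = 0.0108), where 8.11% of all genes did. Leaving out the 4 arrays with Xist signal leaves 1 array each in DN1 and DN2, so counts of the relatives from that fit are not given. In it the Hbp1 call did not hold, and Tox3, Cic and Ubtf were still higher in DN3 than in DN2. Sox8 and Sox17 were then lower in DN2 than in DN1. However, Sox8 read at most 2.28 in DN1, near the floor, and Sox17 left the floor on 1 DN1 array alone, at 3.91. The relatives' median change was within 0.01 of the median of 0 over all genes in each comparison. In each population 14 or 15 of the 34 lay within 1 unit of the floor, which holds that median near 0. It therefore does not show whether the brighter relatives shifted.

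**Figure D4:**
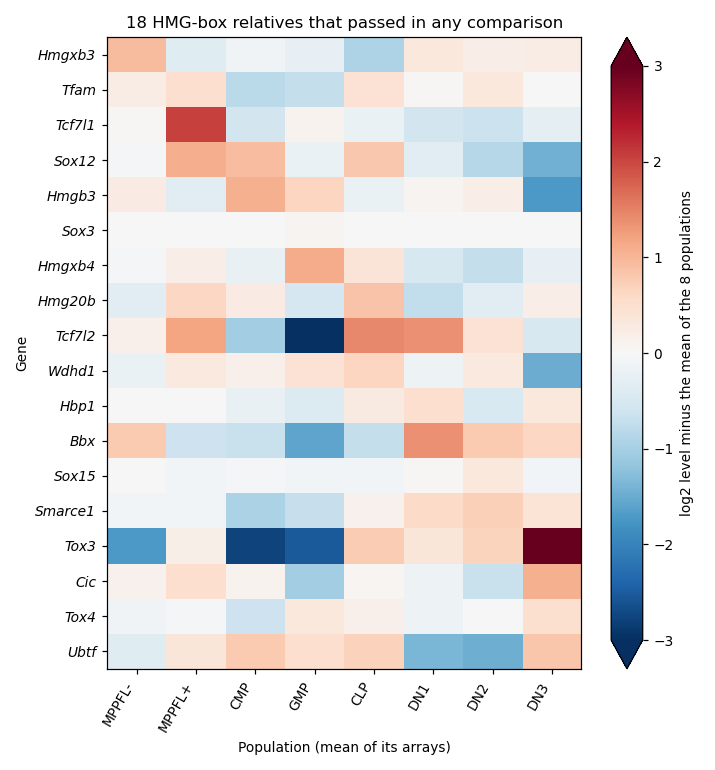
Log2 level of 18 HMG-box relatives (rows) in 8 populations (columns) as a difference from the mean of the 8 population means; red is above and blue below, with colours limited at 3 units. Tox3 is highest in DN3, Tcf7l1 in MPPFL+ and Tcf7l2 is high in CLP.

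A second list joined genes of the beta-catenin machinery, with which Lef1 works, and targets of the pathway, and 26 of its genes were measured. From DN2 to DN3, 8 of 26 rose and 5 fell, where 16.7% of all genes passed as higher and 14.4% as lower. Tle5 and Tle1, of the Groucho family that binds TCF/LEF factors, rose by 1.83 and 1.62, and Axin1, a scaffold of the beta-catenin destruction complex, rose by 1.67. Cd44 and Ccnd1, known Wnt targets, changed by -6.67 and -3.13, and Tle2 by -2.87, at least 7.31-fold. The part of Wnt signalling or of the sorting of the stages in these changes was not tested. From DN1 to DN2, Axin2, a target of the pathway, rose by 1.85, at least 3.62-fold, 4 others fell (3.99% and 4.12% of all genes), and Ccnd1 (-3.35) and Cd44 (-1.27) led these.

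From MPPFL- to MPPFL+, 7 of these 26 rose and 1 fell, against 10.6% and 5.25% of all genes, led by Tle5 (1.59) and Tle3 (1.39). From MPPFL+ to CMP none rose and 13 fell, against 5.39% and 18.7% of all genes, among them Tle2 (-1.96), Cd44 (-1.62) and Bcl9 (-1.55), a beta-catenin cofactor. From CMP to GMP 1 rose and 2 fell, against 13.8% and 7.63% of all genes, and from MPPFL+ to CLP 2 fell, against 4.01%. Between GMP and CLP, 12 were higher in CLP and 1 was lower, against 16.7% and 11.6%, with Tle5 at 2.48 and Bcl9l at 2.06. From CLP to DN1, 1 rose (Bcl9, 3.75) and 9 fell, against 8.03% and 18.8%, led by Tle5 (-3.09), Ctnnbip1 (-1.74) and Ctbp1 (-1.70). Counts of this list and of the relatives rest on 1 probe set per gene, and none is given with the spike-in block. Leaving out the 4 arrays with Xist signal leaves 1 array each in DN1 and DN2, so counts of this list from that fit are not given. In it Axin2 was still higher and Ccnd1 still lower in DN2 than in DN1, whereas the Cd44 call for DN2 against DN1 did not hold. The list's median change was -0.45 from MPPFL+ to CMP, 0.46 between GMP and CLP, and -0.33 from CLP to DN1, beside 0 for all genes. Over the 11090 genes left by a filter on dim genes, the medians were -0.31, 0.13 and -0.23 in the same 3 comparisons. A shift of that sign was thus common to the genes above the floor. The list itself was not filtered, so the sizes of its shifts cannot be set against these medians.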

How the data were processed

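Total RNA was extracted with Trizol and labelled as biotin cRNA for Affymetrix arrays, per the labels' protocols. The deposited values are log2 expression per probe set, as made by the authors; how they were normalized and summarized is not given here. Probe sets took their genes from the platform annotation: 34945 named 1 gene, 932 several and 9224 none, and 64 controls were left out. The members and lists were chosen with earlier results of these data known.

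The probe set with the highest mean stood for each gene. limma 3.58.1 in R 4.3.3 (lmFit and eBayes, two-sided, all 26 arrays in 1 fit, 18 residual degrees of freedom) tested 18193 genes with Benjamini-Hochberg adjustment over all of them at 0.05, and, separately, 45037 probe sets. The code was tested on simulated data. Where the lower population lay within 1 unit of the floor on all its arrays, the ratio is a lower bound. Every member was named, and of each list up to 3 passing genes per direction and comparison with the largest change. Similar genes were the 3 with the highest r whose highest population mean reached 5.31, the median over genes. The number of arrays limits the precision.

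Alternatives were quantile normalization, a filter (over 1 unit above the floor on 3 arrays), the mean of probe sets, all probe sets tested, the compared populations alone, the replicate number as a block, spike-in clusters (6) as a random block, a 3' to 5' signal covariate and each array left out. Leaving out the arrays with Xist over 3 units above the floor was chosen after seeing the data.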

Additional observations from a re-analysis of the deposited data

Results flagged for a closer look

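Among the probe sets of these genes in MPPFL-, the population with 5 arrays, 18 groups were tested for an array far from the other 4, and 4 had one. A chance rate of about 1 in 20 assumes independent values with a normal spread. It does not apply to values held at the floor or at a recurring low value, so 4 of 18 cannot be read as an excess. For Sox5, 1423500_a_at read 2.35 on replicate 5 and 2.17 on the others, and 1455535_at read 2.29 on replicate 3 and 2.18 to 2.2 on the others. For Tox, 1425483_at read 2.17 on replicate 5 and 2.21 to 2.22 on the others. For Tox2, 1440156_s_at read 3.19 on replicate 1 and 3.31 to 3.34 on the others. All 4 gaps were under 1 log2 unit and lay near the floor or a recurring low value.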

How the results depend on the processing

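Over 56 member results, 819 recomputations were made: 769 kept direction and side of the threshold, 27 lost the call, 20 gained one and 3 reversed. Many of the 769 could hardly differ, since they compared the floor with the floor or, with all probe sets tested, used the same probe set. The 27 losses fell on results that had passed, so the tally does not measure how firm those calls are. Reversals were Sox4 in CMP against MPPFL+ with the mean of probe sets (0.24), and, without the arrays with Xist signal, Sox5 in DN1 against CLP (-0.013) and in DN2 against DN1 (1.73). The number of members that passed was 1 for CMP against MPPFL+ with only the 2 populations fitted and with the spike-in block, 0 for CLP against MPPFL+ with only the 2 populations and with the mean of probe sets, and 1 for DN1 against CLP with only the 2 populations, 0 with the spike-in block and 1 without the arrays with Xist signal. Without those arrays 1 passed for DN2 against DN1, and for DN3 against DN2 2 passed, or 1 with the spike-in block. Tox in DN3 read 8.84 after quantile normalization (8.88 as deposited).

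Leaving out 1 array at a time gave 3 to 4 members for MPPFL+ against MPPFL-, 2 to 4 for CMP against MPPFL+, 3 to 4 for GMP against CMP, 1 to 1 for CLP against MPPFL+, 2 to 2 for CLP against GMP, 1 to 3 for DN1 against CLP, 0 to 0 for DN2 against DN1 and 3 to 4 for DN3 against DN2. Tox2 passed for CMP against MPPFL+ without CMP replicate 2 or 3 (1.42, adjusted p = 0.032 and 0.0328), and for GMP against CMP likewise (-1.43, 0.0312 and 0.0359), whereas without CMP replicate 1 the changes were 0.0012 and -0.01 (1 and 1). Sox5 passed for DN3 against DN2 without DN2 replicate 2 (-1.44, 0.03), and Sox13 for CMP against MPPFL+ without MPPFL+ replicate 1 (-1.35, 0.011; -0.75, 0.219 without replicate 2). Tox passed for DN1 against CLP without CLP replicate 1 (0.77, 0.0332) or DN1 replicate 2 (0.82, 0.0166), and was 0.39 (0.283) without DN1 replicate 3. The causes were not tested.

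With the replicate number as a block, all 56 member results, passed or not, kept their side of the threshold. Over all genes the count for MPPFL+ against MPPFL- was 1814 in place of 2886. The numbers do not pair the arrays: of 84 same-numbered pairs of arrays 9 had deviations correlated above 0.1 (range -0.402 to 0.399), and 7 of 26 arrays were most like an array of their own number in another population. With the spike-in block, counts over all genes were 1567 in place of 4379 for CMP against MPPFL+, 1515 in place of 3891 for GMP against CMP, 2317 in place of 5152 for CLP against GMP, 1788 in place of 4890 for DN1 against CLP and 3002 in place of 5652 for DN3 against DN2. Quantile normalization moved the share of higher calls for CMP against MPPFL+ from 22.4 to 36.3%. Signal near the floor limits Sox5, Sox13 and Tox2.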
